A study of Mus musculus with 7 samples.

Results

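Genes that mark white blood cells were followed in the ovary: 40 genes out of the 55487 gene rows of the count files, listed as markers of macrophages and monocytes, dendritic cells, T cells, natural killer (NK) cells and B cells, together with a pair of chemokines. All 40 were found by their symbol in the GENCODE M21 annotation of mouse genome build mm10. Whole ovaries came from C57BL/6J mice at diestrus on postnatal day 60, with 1 library for each mouse. The 3 CNTR mice were offspring of dams given PBS in late gestation, and the 4 PAMH F3 mice were the third generation descended from dams given anti-Müllerian hormone (AMH) at 0.12 mg/kg/day from E16.5 to E18.5. The PAMH F3 mice and their mothers received no AMH themselves. The CNTR animals stood 1 generation after injection and the PAMH F3 animals 3, so that lineage and generation cannot be told apart. Nothing in the labels says whether the PAMH F3 mice came from separate litters, and the p-values cover the spread between these libraries.

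Gene counts summed to 32158174 to 35485021 per library, and the 40 genes together took 0.104% to 0.151% of them. Levels are given as CPM, the counts of a gene scaled to one common library size after TMM correction, and levels of different genes are compared as CPM per kilobase of merged exon. The granulosa cell gene Inha, which encodes the inhibin alpha chain and served as a check of the labelled tissue, was at a mean of 1722 CPM. Ovgp1, a gene of the oviduct epithelium, was at a mean of 4085 CPM. How much oviduct the ovary samples held was not tested.

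Leukocytes of the ovary are part of its normal working. Macrophages, the most abundant of them in the mouse, surround growing follicles, clear the cells of atretic follicles and enter the corpus luteum as it regresses. MHC class II molecules are pairs of an alpha and a beta chain that show peptides to CD4 T cells; macrophages, dendritic cells and B cells carry them, the invariant chain (Cd74) guides their assembly and Ciita is the coactivator that switches their genes on. In RNA from a whole organ, fewer leukocytes and less RNA per leukocyte cannot be told apart.

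A macrophage gene and an antigen presentation gene stood highest and a pair of T cell genes lowest. Lyz2, which encodes lysozyme of macrophages and neutrophils, had the highest level of the 40, at 205 ± 46.5 CPM per kilobase (SD, n = 7 libraries). Reads of Lyz2 can be shared with its close paralog Lyz1, and only uniquely aligned reads were counted. Cd74 followed at 96.5 ± 13.4 CPM per kilobase, and its highest library stayed below the lowest library of Lyz2.

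Tyrobp, a signalling adaptor of myeloid and NK cells, stood at 56.5 ± 11.1 CPM per kilobase and Ctss, the protease cathepsin S that trims the invariant chain, at 54.6 ± 13.2 CPM per kilobase, a difference within their spread. The class II genes came next, with H2-Eb1 at 43.5 ± 6.38, H2-Aa at 41.4 ± 5.27 and H2-Ab1 at 25.0 ± 4.33 CPM per kilobase. H2-Eb1 and H2-Aa did not differ beyond their spread.

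At the other end of the order, Cd8a, a coreceptor of cytotoxic T cells, was at 0.0662 ± 0.0333 CPM per kilobase, from 5 to 15 counts in a library. Cd3e, a chain of the T cell receptor complex, was at 0.104 ± 0.0431 CPM per kilobase, and the B cell genes Ms4a1 and Cd79a, which encode CD20 and a chain of the B cell receptor, were at 0.245 ± 0.069 and 0.367 ± 0.161. Ciita was likewise low, at 0.453 ± 0.0591 CPM per kilobase. The level of Ptprc (CD45, present on nearly all leukocytes) was 0.968 ± 0.156 CPM per kilobase, over a merged exon length of 18313 bases that lowers any value given per kilobase. Ighm, the constant region of the IgM heavy chain, was the highest B cell gene at 12.2 ± 5.85 CPM per kilobase.

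**Figure D1:**
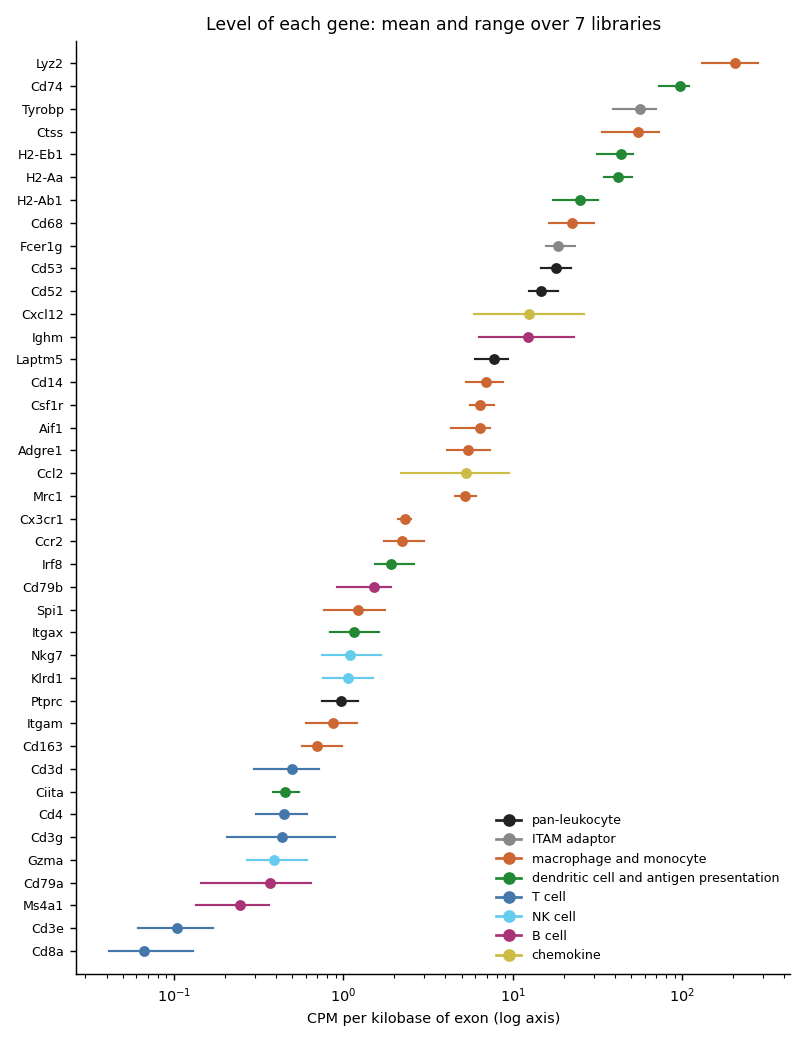
Mean level of each of the 40 genes over 7 libraries (points) with the lowest and highest library (lines), in CPM per kilobase of merged exon on a log axis, coloured by cell type list. Lyz2 stands at the top at 205 and Cd8a at the bottom at 0.0662, and the T cell genes all lie below 0.968, the level of Ptprc.

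Libraries differed more from each other in some lineages than in others. The summed level of the 13 macrophage and monocyte genes was 549, 532 and 567 CPM in the CNTR libraries and 668, 473, 371 and 468 CPM in the PAMH F3 libraries 1 to 4. By this sum PAMH F3 replicate 1 was above all CNTR libraries and the other 3 PAMH F3 libraries below them. Lyz2 was the largest part of the sum, at a mean of 270 CPM, followed by Ctss at 74.2 CPM. Gene by gene, replicate 1 was above all CNTR libraries for Cd68, Csf1r, Adgre1, Lyz2, Mrc1 and Itgam. It lay within the CNTR range for Cd14, Cd163, Cx3cr1, Ccr2, Aif1, Ctss and Spi1. The other 3 were all below CNTR for Lyz2, Csf1r and Ctss only. The summed level of all 40 genes was 1505, 1376 and 1386 CPM in CNTR and 1507, 1220, 1067 and 1050 CPM in PAMH F3, where replicate 1 again lay with the CNTR libraries.

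The median gene varied with a coefficient of variation of 20.7% over the 7 libraries. Cx3cr1, the fractalkine receptor of monocytes and tissue macrophages, varied least, at 6.68%, with 9.91, 11 and 9.47 CPM in CNTR and 10.9, 9.82, 10.5 and 11.3 CPM in PAMH F3. Ccl2, the chemokine that attracts monocytes through Ccr2, varied most, at 59.6%. Cxcl12 followed at 55.1%, and the low T cell gene Cd8a at 50.3%.

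**Figure D2:**
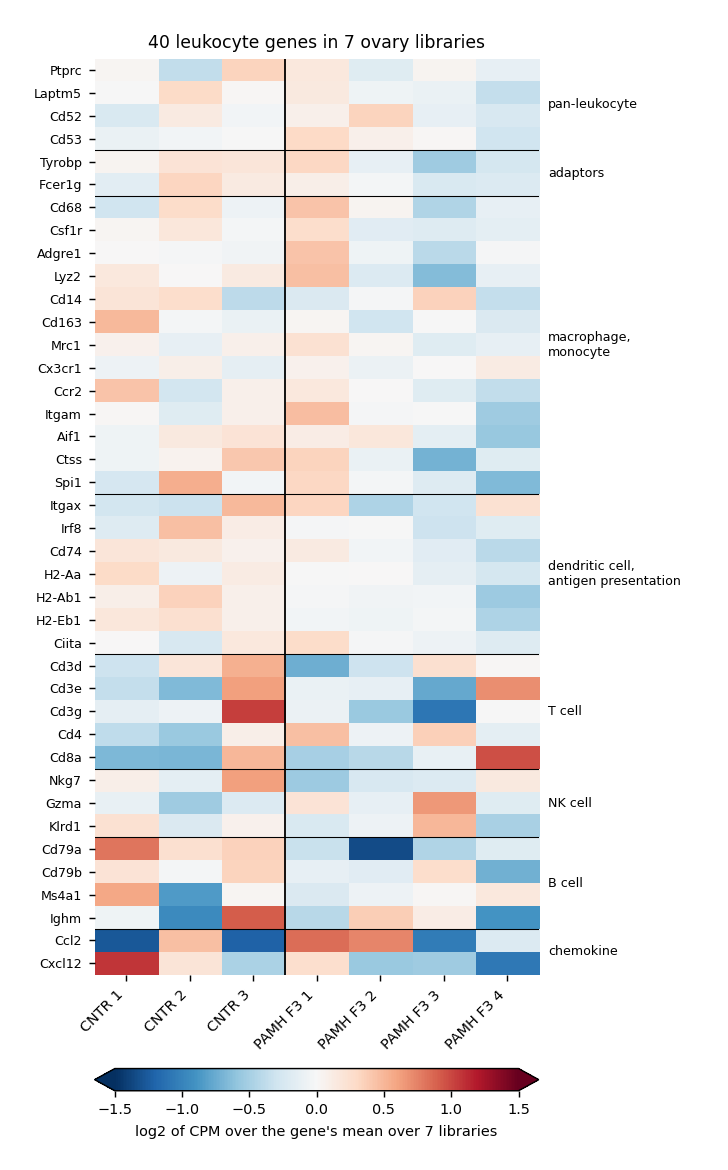
Level of each gene in each library as the log2 of its CPM over its own mean CPM in the 7 libraries; columns are libraries, rows are genes grouped by cell type, and the vertical line parts CNTR from PAMH F3. The macrophage and monocyte rows are mostly above their mean in PAMH F3 replicate 1 and below it in replicate 3, while the class II rows and Cd79a are lower in most PAMH F3 libraries.

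The comparison between PAMH F3 and CNTR ovaries asked whether these genes differ in the third generation of the AMH lineage. It was fitted with edgeR over 18779 genes with 2 surrogate variables, which are estimates of unwanted variation between libraries. Of the 40 genes 39 passed the filter on low counts; Cd8a did not. None of the 39 passed an adjusted p of 0.05, a rule that called 0% of all genes tested, and the smallest adjusted p among them was 0.522.

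At an unadjusted p under 0.05, 6 of the 39 genes were lower in PAMH F3 and 0 were higher, which is 15.4% of them. The same rule called 7.63% of all genes tested, 3.74% as lower and 3.89% as higher. The 6 were H2-Aa, H2-Ab1, H2-Eb1, Cd3g, Cd79a and Cxcl12. DESeq2 with the same surrogate variables gave 7 lower and 0 higher at an unadjusted p under 0.05, beside 3.04% of the same 18779 genes as lower and 2.62% as higher. In that fit 0 of the 39 genes passed the adjusted threshold, beside 0.533% of the 18779 genes. Without surrogate variables, edgeR gave 3 of the 39 lower (H2-Ab1, H2-Eb1 and Cd79a) and 0 higher, beside 2.72% of all genes tested as lower. These 3 genes were lower in both edgeR fits, as were 2.08% of all genes.

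The log2 fold change was below 0 for 31 of the 39 genes, against 47.8% of all genes tested. Its median was -0.13 over the 39 and 0.01 over all genes; without surrogate variables these medians were -0.18 and 0.01. For 22 of the 39 genes the log2 fold change was under 0.2 in size, and the median standard error was 0.20. The 39 values come from the same 7 libraries and are not independent of each other.

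1 library weighed on these counts. Without PAMH F3 replicate 1, 14 of the 39 genes were lower at an unadjusted p under 0.05 and 0 were higher, beside 5.77% of all genes tested as lower in that fit. Without surrogate variables the count was 9 of the 39, beside 3.3% of all genes. The 8 genes that joined the 6 in the fit with surrogate variables were Laptm5, Tyrobp, Csf1r, Lyz2, Cd163, Ccr2, Ctss and Cd74. Of all 39, Cxcl12 alone then passed the adjusted threshold, beside 0.167% of all genes. PAMH F3 replicate 1 had the highest macrophage and monocyte sum of its group, so its omission lowers the PAMH F3 mean of that sum. Without CNTR replicate 1 the count in either direction was 4, where 1883 of 19094 genes were lower and 1373 higher. It was also 4 without PAMH F3 replicate 4, where 539 of 18626 genes were lower and 667 higher.

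**Figure D3:**
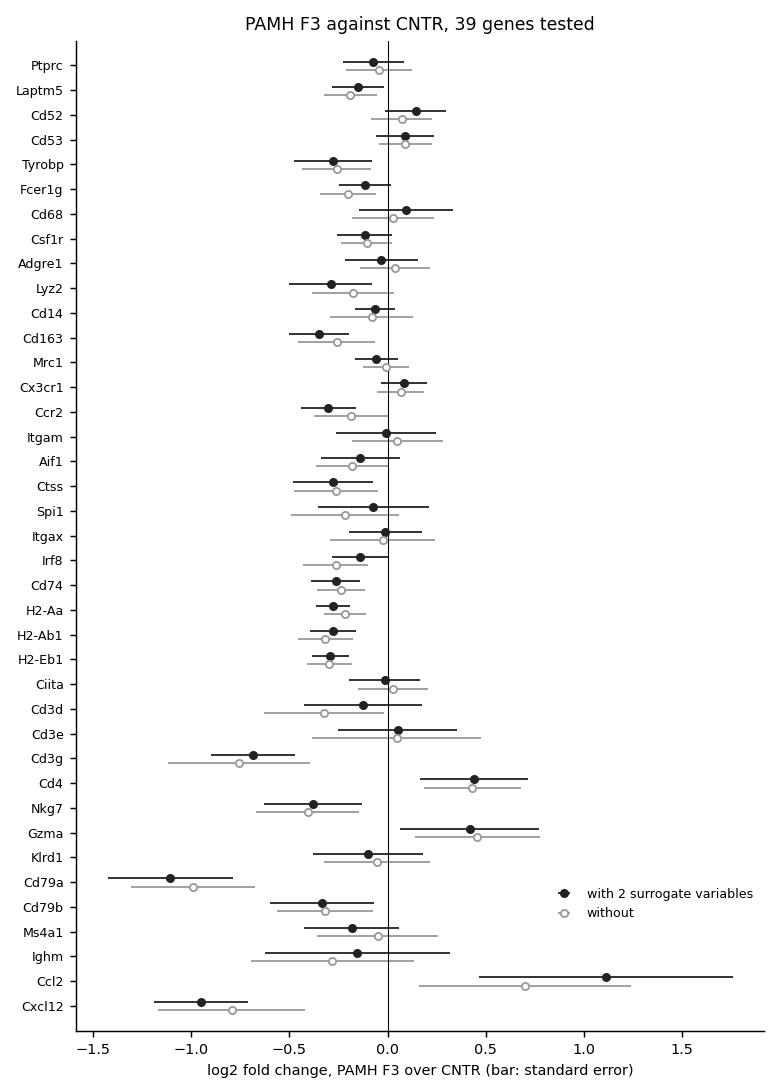
Log2 fold change of PAMH F3 over CNTR for the 39 genes tested, with its standard error, from edgeR with 2 surrogate variables (filled) and without (open). The class II genes H2-Aa, H2-Ab1 and H2-Eb1 lie close together between -0.22 and -0.32 in both fits, Cd79a is lowest at -1.11, and Ccl2 is highest at 1.11 with a standard error of 0.65.

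The class II genes were lower in PAMH F3 ovaries by similar amounts, without any of them passing the adjusted threshold. H2-Eb1, which encodes a class II beta chain, was at 95.1, 99.7 and 89.2 CPM in CNTR and at 82.5, 80.9, 83.1 and 61.3 CPM in PAMH F3. All 4 PAMH F3 libraries lay below all 3 CNTR libraries. In the fit, H2-Eb1 had a log2 fold change of -0.29 with a standard error of 0.10 (unadjusted p = 0.018, adjusted p = 0.580). Leaving out any 1 library with surrogate variables kept the unadjusted p of H2-Eb1 at or below 0.035. Without surrogate variables it reached 0.076, when CNTR replicate 2 was left out. With a replicate block over replicates 1 to 3 and no surrogate variables it was 0.0999.

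H2-Ab1, the beta chain of the I-A molecule, was at 68.4, 81.5 and 67.4 CPM in CNTR and at 63.6, 62.0, 62.5 and 44.1 CPM in PAMH F3. These groups did not overlap either. For H2-Ab1 the log2 fold change was -0.28 with a standard error of 0.12 (unadjusted p = 0.046, adjusted p = 0.645). Groups that did not overlap, with PAMH F3 lower, were found for 3 of the 39 genes (H2-Ab1, H2-Eb1 and Cd79a) and for 2.4% of all genes tested. PAMH F3 lay above CNTR without overlap for 0 of the 39 and for 1.85% of all genes, which makes 4.25% in either direction.

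H2-Aa, the alpha chain of the I-A molecule, was at 192, 149 and 172 CPM in CNTR and at 157, 157, 143 and 131 CPM in PAMH F3. The groups overlapped, since CNTR replicate 2 lay within the PAMH F3 values. H2-Aa had a log2 fold change of -0.28 with a standard error of 0.09 (unadjusted p = 0.013, adjusted p = 0.562), and of -0.11 without CNTR replicate 1.

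Cd74 was at 184, 179 and 169 CPM in CNTR and at 178, 157, 144 and 122 CPM in PAMH F3. In PAMH F3 replicate 1 its level lay within the CNTR range and in the other 3 libraries below it. For Cd74 the log2 fold change was -0.26 with a standard error of 0.12 (unadjusted p = 0.071, adjusted p = 0.681).

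The coactivator Ciita had an estimate close to 0. It was at 4.34, 3.66 and 4.83 CPM in CNTR and at 5.24, 4.28, 4.10 and 3.76 CPM in PAMH F3. A log2 fold change of -0.01 with a standard error of 0.18 was estimated, and the difference between Ciita and the class II genes was not tested. The dendritic cell genes Itgax, which encodes the integrin CD11c, and Irf8, a transcription factor of dendritic cells and monocytes, had log2 fold changes of -0.01 and -0.14, with standard errors of 0.19 and 0.14.

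The 3 class II genes lie side by side on chromosome 17, in the order H2-Ab1 (chr17:34257689-34269419), H2-Aa (chr17:34282744-34287823, on the minus strand) and H2-Eb1 (chr17:34305867-34316674) on mm10, with 13324 and 18043 bases between them. Their promoters are known to share a Y box, a short site for the factor NF-Y just before the start. Its letters CTGATTGG were searched on both strands in the 250 bases before the start of every promoter in the RefSeq table on GRCm38.p6, the assembly of mm10. Of the 40 genes 25 had an entry there. H2-Ab1 had none and was not searched. The letters stood in 3 of the 25 (H2-Aa, H2-Eb1 and Irf8) and in 3.83% of the 32851 promoters. A gene counted once if any of its entries held the letters, while the promoters counted entry by entry, so these shares are unlike measures. The stretches of H2-Aa (chr17:34287824-34288073, minus strand) and H2-Eb1 (chr17:34305617-34305866, plus strand) are shown because the comparison turned on these genes, and that of Irf8 (chr8:120736223-120736252, plus strand) as 30 bases around the match; capitals mark the Y box letters.
H2-Aa: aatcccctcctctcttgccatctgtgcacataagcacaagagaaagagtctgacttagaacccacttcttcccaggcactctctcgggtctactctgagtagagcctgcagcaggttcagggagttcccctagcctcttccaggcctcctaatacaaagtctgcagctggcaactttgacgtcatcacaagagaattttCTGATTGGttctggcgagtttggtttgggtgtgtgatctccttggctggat
H2-Eb1: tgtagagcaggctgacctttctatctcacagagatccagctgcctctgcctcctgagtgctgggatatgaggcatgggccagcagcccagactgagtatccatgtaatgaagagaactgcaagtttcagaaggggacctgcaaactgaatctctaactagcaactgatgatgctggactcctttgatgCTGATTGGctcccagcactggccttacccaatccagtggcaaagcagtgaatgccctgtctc
Irf8: ggcaggctgcgCTGATTGGgccgcgccagc

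The match ended 44 bases before the start of H2-Aa, 55 before that of H2-Eb1 and 117 before that of Irf8. Irf8 carried the same letters with levels of 11.8, 18.4 and 14.6 CPM in CNTR and 13.3, 13.5, 10.8 and 11.9 CPM in PAMH F3. These groups overlapped, as did those of H2-Aa. Whether the letters go with the group differences was not tested.

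**Figure D4:**
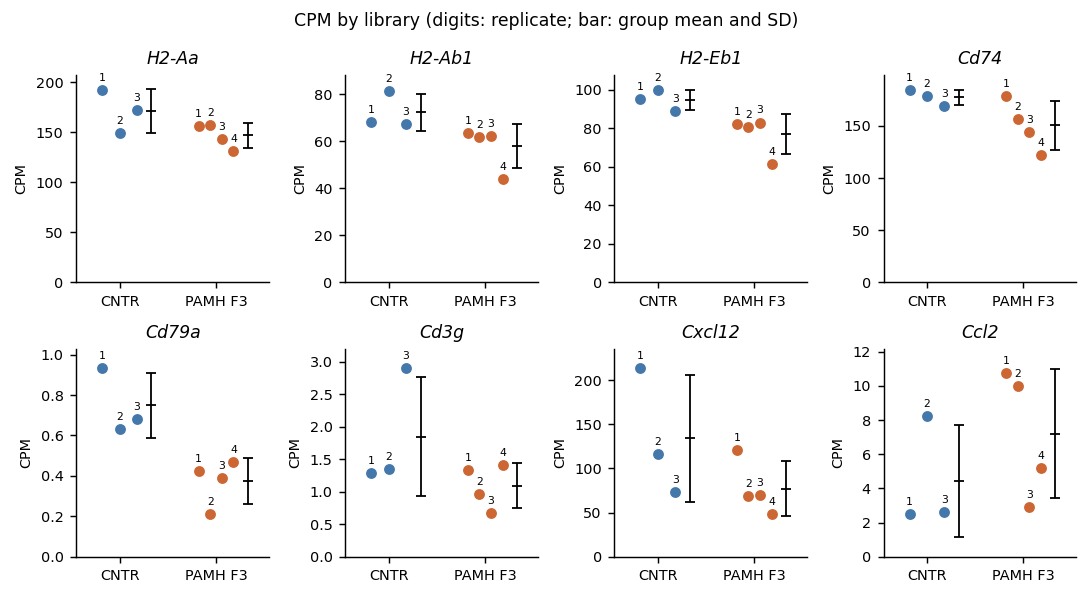
CPM in each library for 8 genes, with the replicate number beside each point and the mean and SD of each group as a bar; each axis starts at 0. The groups do not overlap for H2-Ab1, H2-Eb1 and Cd79a and overlap for H2-Aa, Cd74, Cd3g, Cxcl12 and Ccl2.

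Among the B cell genes, Cd79a stood apart. It was at 0.934, 0.630 and 0.681 CPM in CNTR and at 0.425, 0.211, 0.391 and 0.470 CPM in PAMH F3, from 7 to 31 counts in a library. The groups did not overlap. Cd79a had a log2 fold change of -1.11 with a standard error of 0.32 (unadjusted p = 0.010, adjusted p = 0.542), and of -0.83 without CNTR replicate 1, where the unadjusted p was 0.074.

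Its partner in the B cell receptor, Cd79b, was at 2.5, 2.13 and 2.72 CPM in CNTR and at 1.98, 1.93, 2.59 and 1.32 CPM in PAMH F3. These values overlapped, and the log2 fold change of Cd79b was -0.33 with a standard error of 0.26. Ms4a1 had a log2 fold change of -0.18 with a standard error of 0.24.

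Ighm was at 22.0, 11.9 and 43.3 CPM in CNTR and at 17.4, 29.7, 24.9 and 12.4 CPM in PAMH F3. The 3 CNTR libraries thus spanned more than the 4 PAMH F3 libraries, and the log2 fold change of -0.15 had a standard error of 0.47. The erythroid genes, which mark blood in the tissue, summed to 27.7, 15.7 and 50.2 CPM in CNTR and 21.7, 17.4, 36.7 and 17.3 CPM in PAMH F3. CNTR replicate 3 was highest and CNTR replicate 2 lowest for both, and the part of blood in the level of Ighm was not tested.

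T cell genes were few in counts and went different ways. Cd3g, a chain of the T cell receptor complex, was at 1.30, 1.35 and 2.91 CPM in CNTR and at 1.33, 0.964, 0.670 and 1.41 CPM in PAMH F3. CNTR replicate 3 was far above the other libraries, and the groups overlapped. Cd3g had a log2 fold change of -0.69 with a standard error of 0.21 (unadjusted p = 0.014, adjusted p = 0.564), and of -0.53 without CNTR replicate 3, where the unadjusted p was 0.115.

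The other chains of that complex, Cd3d and Cd3e, had log2 fold changes of -0.13 and 0.05, each with a standard error of 0.30. On chromosome 9 the genes are neighbours, with 1354 bases between Cd3g and Cd3d and 11400 between Cd3d and Cd3e. Cd4, the coreceptor of helper T cells, was at 1.39, 1.23 and 1.92 CPM in CNTR and at 2.47, 1.72, 2.32 and 1.63 CPM in PAMH F3, with overlap between the groups. A log2 fold change of 0.44 with a standard error of 0.28 was estimated for Cd4. Cd8a, which was not tested, was at 0.151, 0.150 and 0.340 CPM in CNTR and at 0.170, 0.181, 0.223 and 0.470 CPM in PAMH F3.

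None of the 3 NK cell genes had an unadjusted p under 0.05. Nkg7, a granule protein of cytotoxic cells, had a log2 fold change of -0.38 with a standard error of 0.25, and Gzma, which encodes the protease granzyme A, one of 0.42 with a standard error of 0.35. Klrd1, the CD94 receptor chain, had one of -0.10 with a standard error of 0.28. The counts of Gzma were 9 to 22 in a library and those of Nkg7 24 to 49, which limits what could be seen.

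None of the 13 macrophage and monocyte genes had an unadjusted p under 0.05, and 11 of the 13 log2 fold changes were below 0, with a median of -0.07. Csf1r, the receptor for the growth factor that keeps macrophages alive, was at 37.8, 41.7 and 36.4 CPM in CNTR and at 44.6, 32.9, 32.4 and 33.6 CPM in PAMH F3. Only PAMH F3 replicate 1 was above the CNTR libraries, and the other 3 were below them. The log2 fold change of Csf1r was -0.12 with a standard error of 0.14. It was -0.21 without PAMH F3 replicate 1 (unadjusted p = 0.028, adjusted p = 0.403) and -0.05 without PAMH F3 replicate 3 (unadjusted p = 0.753). Exons of Hmgxb3 lie on the opposite strand over 15.1% of the exon bases of Csf1r.

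Lyz2 was at 300, 271 and 296 CPM in CNTR and at 367, 234, 172 and 248 CPM in PAMH F3. It followed the same order as Csf1r in having replicate 1 above all CNTR libraries and the other 3 below them. The log2 fold change of Lyz2 was -0.29 with a standard error of 0.21 (unadjusted p = 0.212). It was -0.45 without PAMH F3 replicate 1 (unadjusted p = 0.0058, adjusted p = 0.253) and -0.10 without PAMH F3 replicate 3 (unadjusted p = 0.590).

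Adgre1, which encodes the macrophage surface protein F4/80, was at 17.7, 17.4 and 17.0 CPM in CNTR and at 23.7, 16.8, 13.3 and 17.4 CPM in PAMH F3. The CNTR libraries were within 1 CPM of each other and the PAMH F3 libraries spread to both sides. Mrc1, the mannose receptor of tissue-resident macrophages, was steady, with 34.4, 30.4 and 34.7 CPM in CNTR and 38.7, 33.6, 29.1 and 30.3 CPM in PAMH F3. Cd163, the scavenger receptor for haemoglobin, had a log2 fold change of -0.35 with a standard error of 0.15 (unadjusted p = 0.056, adjusted p = 0.665), and of -0.04 without CNTR replicate 1. Ccr2, the receptor of inflammatory monocytes, had one of -0.30 with a standard error of 0.14, and of 0.04 without CNTR replicate 1.

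The remaining macrophage and monocyte genes had log2 fold changes from -0.28 (Ctss) to 0.10 (the lysosomal protein gene Cd68). Of these, Itgam, the integrin chain CD11b, shares 68.7% of its exon bases with the gene model Gm49368 on the same strand, so its count is uncertain. The adaptors Tyrobp and Fcer1g, the latter the gamma chain of the Fc receptors, had log2 fold changes of -0.28 and -0.11, with standard errors of 0.20 and 0.13. Among the pan-leukocyte genes, Ptprc was at 18.1, 13.7 and 22.3 CPM in CNTR and at 19.8, 15.6, 18.3 and 16.2 CPM in PAMH F3, a log2 fold change of -0.07 with a standard error of 0.16. Those of Laptm5, Cd52 and Cd53, which encode a lysosomal membrane protein and a pair of leukocyte surface proteins, were -0.15, 0.14 and 0.09.

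Promoters of leukocyte genes often hold sites for ETS factors such as PU.1, which Spi1 encodes. The letters CAGGAAGT, one form of an ETS site, stood in the 250 bases before the start of 5 of the 25 genes with an entry. They stood in 2.69% of all promoters, again counted entry by entry where the genes counted once. Of these, 4 are shown as 30 bases around the match, 5′ to 3′ on the strand of the gene, since they come from macrophage, T cell and B cell genes alike; capitals mark the match, which reads ACTTCCTG where it is on the other strand.
Lyz2: gatcggtaggaACTTCCTGttttgcacaca
Mrc1: cacttctccccACTTCCTGcgttttctcct
Cd3e: gtcccctctacACTTCCTGtgtggggttca
Cd79a: gcacggctgaaCAGGAAGTgaggcggagtt

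They lie at chr10:117282354-117282383 (Lyz2), chr2:14229192-14229221 (Mrc1), chr9:45009611-45009640 (Cd3e) and chr7:24897430-24897459 (Cd79a), with Mrc1 and Cd79a on the plus strand and the others on the minus strand. The 4 genes had log2 fold changes of -0.29, -0.06, 0.05 and -1.11 in that order. Spi1 itself was at 2.74, 4.77 and 3.19 CPM in CNTR and at 4.08, 3.22, 2.87 and 2.07 CPM in PAMH F3. The difference, a log2 fold change of -0.07, had a standard error of 0.28. Which ETS factor, if any, binds these letters was not tested.

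The chemokines went opposite ways and were the most variable of the 40 genes. Cxcl12, which stromal and endothelial cells make to hold leukocytes that carry Cxcr4, was at 214, 116 and 73.1 CPM in CNTR and at 121, 69.2, 70.4 and 48.4 CPM in PAMH F3. The groups overlapped, and CNTR replicate 1 was far above the rest. The log2 fold change of Cxcl12 was -0.95 with a standard error of 0.24 (unadjusted p = 0.0053, adjusted p = 0.522). Without CNTR replicate 1 it was -0.24 (unadjusted p = 0.527), and without PAMH F3 replicate 1 it was -1.20 (adjusted p = 0.0053), so a single library decided whether Cxcl12 was called.

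The adipocyte genes also differed widely between libraries, with a summed level of 1338, 595 and 388 CPM in CNTR and 379, 778, 1015 and 186 CPM in PAMH F3. Their highest library was the one highest in Cxcl12 and their lowest the one lowest in it, while PAMH F3 replicate 3 was high in adipocyte genes and low in Cxcl12. All 6 adipocyte genes passed the filter, with log2 fold changes from -0.83 to -0.37 and none at an unadjusted p under 0.05. The part of fat tissue in the level of Cxcl12 was not tested. Its receptors Cxcr4 and Ackr3 had log2 fold changes of -0.10 and -0.02, with standard errors of 0.23 and 0.08.

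Ccl2 was at 2.5, 8.22 and 2.60 CPM in CNTR and at 10.8, 9.97, 2.90 and 5.20 CPM in PAMH F3. CNTR replicate 2 was within the range of the PAMH F3 libraries, and the log2 fold change of 1.11 had a standard error of 0.65 (unadjusted p = 0.129, adjusted p = 0.736). With 1 library left out, the log2 fold change of Ccl2 ranged from 0.58 without CNTR replicate 1 to 1.61 without PAMH F3 replicate 3. In the latter fit the unadjusted p was 0.00061, and without CNTR replicate 2 it was 0.038 with a log2 fold change of 1.44. In both fits 0 of all genes tested passed the adjusted threshold.

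Beside the 40, a wider set of 119 leukocyte genes was counted, of which 101 passed the filter. At an unadjusted p under 0.05, 5 were lower and 3 were higher in PAMH F3, beside 3.74% and 3.89% of all genes tested, and 0 passed the adjusted threshold. The median log2 fold change over the 101 was -0.09. The 5 lower genes were Cd28, Ighd, Il2rb, Cxcr5 and Iglc2, and the 3 higher ones Cxcl1, Mertk and Ccl4. Among the 101, H2-DMb1 alone had groups without overlap, beside 4.25% of all genes tested.

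In the wider antigen presentation list, H2-DMb1, a chain of the molecule that loads peptides onto class II, was at 9.79, 8.4 and 9.53 CPM in CNTR and at 8.02, 8.19, 8.15 and 5.74 CPM in PAMH F3. For H2-DMb1 it was a log2 fold change of -0.33 with a standard error of 0.16 (unadjusted p = 0.086, adjusted p = 0.706). Its partner H2-DMa, named after its value was seen, had one of -0.22 with a standard error of 0.15. Rfx5, a subunit of the factor that binds the class II promoters together with Ciita, was at 8.31 CPM per kilobase, the highest of that list, and had a log2 fold change of 0.07 with a standard error of 0.08.

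In the wider T and B cell lists, 1 library set the largest values. Cd28, the costimulatory receptor of T cells, was at 1.57, 1.98 and 11 CPM in CNTR and at 2.24, 0.843, 0.725 and 1.13 CPM in PAMH F3, with CNTR replicate 3 far above the rest. Iglc2, a light chain constant region, was at 1.08, 0.420 and 9.25 CPM in CNTR and at 0.538, 0.873, 0.502 and 0.439 CPM in PAMH F3, again with CNTR replicate 3 apart. Ighd, the heavy chain of IgD on resting B cells, had a log2 fold change of -0.88 with a standard error of 0.29 (unadjusted p = 0.018, adjusted p = 0.581). Igkc, the kappa light chain, was the highest of the B and plasma cell list at 53.8 CPM per kilobase and had a log2 fold change of -0.01 with a standard error of 0.41.

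Mertk, a receptor by which macrophages take up dying cells, had a log2 fold change of 0.20 with a standard error of 0.07 (unadjusted p = 0.029, adjusted p = 0.618) and was at 28.4, 30.3 and 43.2 CPM in CNTR and at 41.1, 35.9, 32.0 and 42.2 CPM in PAMH F3. The highest of the wider macrophage list was C1qb, a chain of complement C1q, at 66.9 CPM per kilobase. The chemokine gene Cxcl1, which attracts neutrophils, was at 1.33, 6 and 4.24 CPM in CNTR and at 4.68, 4.61, 4.63 and 4.36 CPM in PAMH F3. All 4 PAMH F3 libraries lay within the CNTR range, and the log2 fold change was 0.91 with surrogate variables (unadjusted p = 0.0033, adjusted p = 0.522) and 0.25 without. Of the 12 neutrophil genes 6 passed the filter, and of the 5 eosinophil genes 1, with no unadjusted p under 0.05 in either list. The highest genes of the remaining wider lists were Ccl21a, a chemokine of lymphatic vessels, at 47.5 CPM per kilobase, Mmp8, a neutrophil collagenase, at 2.83, Trbc2, a constant region of the T cell receptor, at 1.74, Hcst, an adaptor of NK cells, at 1.05, and the eosinophil receptor Ccr3 at 0.112.

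Correlations over the libraries were higher within most cell type lists than over the 40 as a whole, and highest among the class II genes and Cd74. Pearson's r of log2 CPM over the 7 libraries had a median of 0.19 over all 780 pairs of the 40 genes, 0.37 over the 78 macrophage and monocyte pairs, 0.82 over the 6 pairs of the class II genes and Cd74, and 0.25 over the 10 T cell pairs. The median was 0.40 over the 6 pan-leukocyte pairs, 0.29 over the 6 B cell pairs and 0.07 over the 3 NK cell pairs. It was -0.07 over the 228 pairs of a myeloid or pan-leukocyte gene with a T, NK or B cell gene. Over all pairs of the 18779 genes it was 0. These medians are descriptions: the pairs share the 7 libraries and each library's total, and the low T and B cell counts add noise.

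Some pairs were close. H2-Ab1 and H2-Eb1 had r = 0.98, which included the difference between the groups. Irf8 and Fcer1g had r = 0.97, Laptm5 and Spi1 0.96, and Tyrobp and Ctss 0.93. The lowest value was -0.95, between Cd14, a coreceptor for bacterial lipopolysaccharide, and Cd3e.

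Of 10 pairs taken for a test, none passed after adjustment over the 10. Csf1r and Adgre1 had r = 0.79 (two-sided exact permutation p = 0.0052, adjusted p = 0.0516) and Spearman's rho = 0.93 (exact permutation p = 0.0067, adjusted p = 0.0675), and r = 0.61 without the 2 libraries farthest from the median of Csf1r. Tyrobp and Fcer1g had r = 0.79 (exact permutation p = 0.031, adjusted p = 0.157) and rho = 0.86 (exact permutation p = 0.024, adjusted p = 0.119), and r = 0.58 without 2 libraries. H2-Aa and H2-Ab1 had r = 0.54 and -0.09 without 2 libraries. The receptor partners Cd79a and Cd79b had r = 0.36, Cd3d and Cd3e 0.17, Ptprc and Laptm5 -0.09, and the pairs across lineages, with Ccl2 and Ccr2 and with Cxcl12 and Ptprc, lay between -0.25 and 0.04. In these last 8 pairs the adjusted p of r was at least 0.680 by the exact permutation test, rho lay between -0.21 and 0.50 (adjusted p at least 0.869 by exact permutation), and r without 2 libraries lay between -0.34 and 0.69. As deviations from the group means, Csf1r and Adgre1 had r = 0.85 and Tyrobp and Fcer1g r = 0.71. By that measure H2-Aa and H2-Ab1 had r = 0.20 and Cd79a and Cd79b -0.15. All of the last 8 pairs then lay between -0.16 (Csf1r and Cd3e) and 0.21 (Cd3d and Cd3e).

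**Figure D5:**
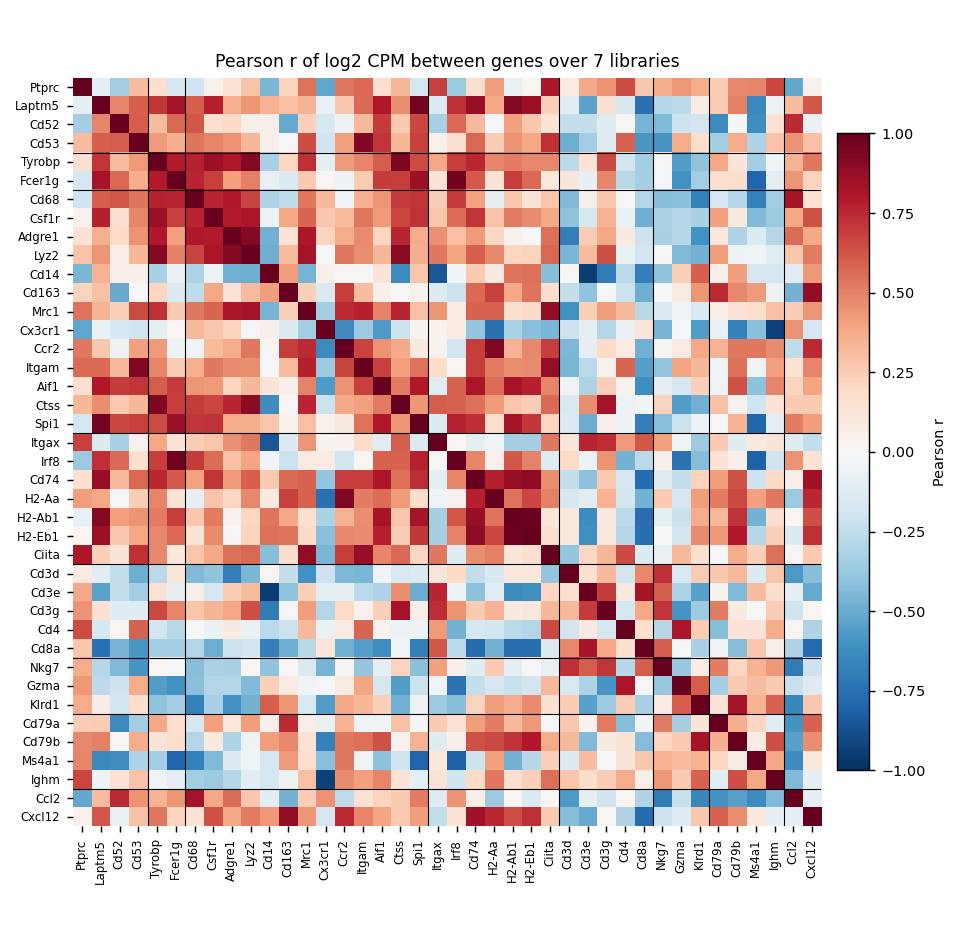
Pearson's r of log2 CPM over 7 libraries for each pair of the 40 genes, in the order of the cell type lists (lines), from -1 (blue) to 1 (red). A block of high values joins the adaptors with Cd68, Csf1r, Adgre1 and Lyz2, and another joins Cd74, H2-Aa, H2-Ab1 and H2-Eb1 (0.54 to 0.98). Most myeloid genes are near 0 or below it with Cd3d and Cd8a. Cd3g is at 0.66 with Tyrobp and 0.65 with Lyz2, and at -0.70 with Cd14.

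Cell types other than leukocytes also differed between libraries. The endothelial genes summed to 295, 254 and 276 CPM in CNTR and 301, 221, 210 and 248 CPM in PAMH F3. PAMH F3 replicate 1 was highest and replicate 3 lowest, as for the macrophage and monocyte sum, of which Lyz2 was the largest part. Over the 7 libraries the endothelial sum had r = 0.94 with Lyz2, as a description. Of the 6 endothelial genes, Pecam1 and Emcn were lower at an unadjusted p under 0.05 (3.74% of all genes tested), with log2 fold changes of -0.44 and -0.21. The adipocyte sum had r = 0.68 with H2-Eb1 and 0.59 with H2-Ab1, and the stromal sum 0.69 and 0.79. The 6 stromal genes summed to 2775, 3399 and 2824 CPM in CNTR and 3143, 3086, 2560 and 2359 CPM in PAMH F3, with no unadjusted p under 0.05. The 5 oviduct epithelium genes summed to 5309, 4077 and 3001 CPM in CNTR and 4119, 4613, 6417 and 2593 CPM in PAMH F3. Over the 7 libraries the oviduct sum had r = -0.74 with Cd3g and 0.50 with H2-Eb1, as a description. The part of these tissues in the leukocyte levels was not tested.

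In the ovarian lists, Hsd17b1, the granulosa cell enzyme that makes estradiol from estrone, had a log2 fold change of 0.42, Foxl2, a transcription factor of granulosa cells, one of -0.24, and Ptgfr, the luteal receptor for prostaglandin F, one of -0.95, each with an unadjusted p under 0.05 and an adjusted p of at least 0.522. Of the genes tested, 2 of 6 granulosa genes were lower and 1 higher at that rule, 2 of 5 luteal genes were lower, beside 3.74% of all genes tested as lower and 3.89% as higher, and 0 of 4 theca, 0 of 7 oocyte and 0 of 5 oviduct epithelium genes had such a p. The highest genes of the other lists, all with an unadjusted p above 0.05, were Hsd3b1, Cyp11a1, Cfd, Lum, Gdf9, Hbb-bs and Cdh5, at 4918, 4132, 166, 310, 93.8, 19.6 and 52.8 CPM.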

How the data were processed

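Ovarian poly(A) RNA of 3 CNTR and 4 PAMH F3 mice was sequenced from stranded libraries as single reads. The authors called bases with bcl2fastq 2.17.1.14, aligned reads to mm10 with STAR 2.5.3a and counted uniquely aligned reads per gene with HTSeq 0.6.1p1 in union mode, per the paper's methods and the submitters' processing notes. The deposited values are raw counts per gene without normalization. The annotation release and whether counting used strand are not given in the sources used here, so reads of overlapping genes on opposite strands may not have been told apart (Cd52, Csf1r, Cx3cr1, Ciita and Cd3e). The 5 HTSeq summary lines, 45.8% to 47.5% of each file's total, were left out.

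Of 55487 gene identifiers 55394 matched GENCODE M21. Genes with too few counts were removed by filterByExpr (minimum count 10), and TMM-scaled counts were fitted with edgeR 4.0.16 by the quasi-likelihood test with group and 2 surrogate variables from sva 3.50.0 (R 4.3.3), with Benjamini-Hochberg adjustment over 18779 genes and a threshold of 0.05. The number 2 was estimated on log counts; the estimate on unlogged counts was 1, and 1 and 3 were tried. Fold changes are PAMH F3 over CNTR. The standard error of a log2 fold change is its size divided by the square root of the F statistic of the quasi-likelihood test. DESeq2 1.42.0 was an alternative. The fitting code was tested on simulated data. Log2 CPM for correlations used a prior count of 2. Levels per kilobase use the merged length of all annotated exons, chosen because short transcript fragments made the median transcript length unfit.

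The 40 genes, the cell type lists and the tests were chosen with earlier results of these data known. All 40 genes are named; from the wider and other lists those with an unadjusted p under 0.05 or groups that do not overlap (at most 10), and the highest gene per list. Mertk, Ccl4, Iglc2, H2-DMb1, H2-DMa, Cxcr4 and Ackr3 fell outside that rule, and their values were known when they were chosen. The 2 promoter motifs and the size of 0.2 used to count small fold changes were also chosen after the sequences and values were seen.

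No 2 libraries of the same group were alike within sampling noise (observed over expected spread 3.13 to 5.58). The promoter sequence of 1 further gene is not reported here.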

Additional observations from a re-analysis of the deposited data

Results flagged for a closer look

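In the 4 PAMH F3 libraries, 1 library lay far from the other 3 for 3 of the 40 genes by Dixon's test, which by chance flags about 1 in 20 groups, or 2 of 40. Csf1r was at 44.6 CPM in PAMH F3 replicate 1 and at 32.4 to 33.6 CPM in the others. H2-Ab1 was at 44.1 CPM in PAMH F3 replicate 4 and at 62.0 to 63.6 CPM in the others. H2-Eb1 was at 61.3 CPM in PAMH F3 replicate 4 and at 80.9 to 83.1 CPM in the others. Without PAMH F3 replicate 4 the log2 fold changes of H2-Ab1 and H2-Eb1 were -0.18 and -0.21, both still below 0.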

How the results depend on the processing

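The fit was repeated in 25 other ways, 14 of which left out a library. Over all genes, 0 passed the adjusted threshold in the reported fit, 101 with DESeq2 and the same surrogate variables, 6 with DESeq2 without them, 8 without a filter on low counts, and between 0 and 37 when a library was left out (37 without CNTR replicate 1, 31 without PAMH F3 replicate 1). Leukocyte genes at an unadjusted p under 0.05 numbered 6 in the reported fit, 3 without surrogate variables, 3 with DESeq2 without them, 2 with a replicate block and between 2 and 14 with a library left out, the cause of which was not tested. The replicate numbers did not pair the libraries: same-numbered CNTR and PAMH F3 libraries had correlations of deviations from the group means of 0.08, -0.01 and -0.18, not every library correlated best with its own number, and the replicate block used replicates 1 to 3 only. The median log2 fold change of the genes tested stayed below 0 in all 25, from -0.23 to -0.07. No pair correlation passed after adjustment in any of 9 alternatives.

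Of the 39 fold changes 21 kept their sign in all 25 alternatives, among them the 6 with an unadjusted p under 0.05, and 18 changed sign in at least 1, the largest of them Ccr2. H2-Eb1 had an unadjusted p under 0.05 in 22 of 25, Cd79a in 22 of the 24 that tested it, Cxcl12 in 16, H2-Aa and Cd3g in 14 and H2-Ab1 in 13. Log2 fold changes of the other sign were 0.037 (Adgre1), 0.027 (Ciita) and 0.049 (Itgam) without surrogate variables, 0.037 (Adgre1), 0.027 (Ciita) and 0.048 (Itgam) with DESeq2 without them, 0.021 (Adgre1), 0.028 (Ciita) and 0.049 (Itgam) with 1 surrogate variable, 0.00483 (Ciita) and 0.015 (Itgam) with 3, and 0.0062 (Adgre1), -0.0061 (Cd53), 0.072 (Ciita) and 0.0088 (Itgam) with GC and length correction. With the replicate block they were 0.012 (Adgre1), 0.017 (Cd14), -0.22 (Cd3e), 0.093 (Ciita), 0.041 (Ighm), 0.18 (Itgam), 0.051 (Klrd1), 0.026 (Mrc1) and 0.012 (Ptprc).

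With a library left out, the log2 fold changes that took either sign ranged from -0.16 to 0.15 for Adgre1, -0.28 to 0.030 for Aif1, -0.39 to 0.036 for Ccr2, -0.26 to 0.032 for Cd14, -0.52 to 0.028 for Cd3d, -0.26 to 0.51 for Cd3e, -0.055 to 0.24 for Cd52, -0.0085 to 0.21 for Cd53, -0.15 to 0.29 for Cd68, -0.092 to 0.12 for Ciita, -0.63 to 0.47 for Ighm, -0.16 to 0.20 for Itgam, -0.18 to 0.28 for Itgax, -0.36 to 0.082 for Klrd1, -0.12 to 0.038 for Mrc1, -0.38 to 0.40 for Ms4a1, -0.22 to 0.13 for Ptprc and -0.39 to 0.091 for Spi1. Counts under 50 in a library, as in 11 of the 40 genes, limit what could be seen for the T, NK and B cell genes.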

Other observations

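The ratio of Cd3g to Cd3e, chains of 1 receptor complex, was looked at after the values were seen. It was 3.91 to 5.00 in the 3 CNTR libraries and 2.05 to 3.36 in the 4 PAMH F3 libraries, from at most 94 counts of Cd3g and 22 of Cd3e in a library, and it was not tested. The ratio of H2-Eb1 to H2-Ab1 was 1.22 to 1.39 in CNTR and 1.30 to 1.39 in PAMH F3. That of H2-Eb1 to Csf1r was 2.39 to 2.51 in CNTR; in PAMH F3 it was 2.46 and 2.57 in replicates 2 and 3, and 1.85 and 1.82 in replicates 1 and 4.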
